A study of Mus musculus with 3 samples.

Results

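The T cell receptor (TCR) and CD3 complex genes were followed here: Cd3d, Cd3e, Cd3g, Cd247, Trac, Trbc1, Trbc2, Trbv14 and Trbv13-1, 9 of the 33696 genes counted, taken by gene symbol. Their levels, the share of cells in which they were seen and their proportions to one another were measured in 3 single-cell RNA libraries and compared across cycling, cytokine-positive and granzyme-positive cells. The cells were pmel-1 T cells, CD8+ T cells from a mouse strain whose transgenic TCR recognises the melanocyte antigen gp100, recovered from B16F10 melanomas that grew in C57BL/6 mice. All 3 groups shared the same handling. T cells were activated with gp100 peptide and kept in 10 nM of their cytokine before transfer into tumor-bearing hosts that had received 6 Gy of irradiation, 4 intraperitoneal doses of 2.5 μg of cytokine followed, tumors were taken on day 18 after tumor injection, and live Thy1.1+CD8+ cells were sorted.

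The groups differed in the cytokine. The first received sIL-2, a "super" IL-2 variant that binds the IL-2 receptor β chain tightly, before and after transfer. The second received the IL-2/21-Trikine, a fusion of sIL-2 to a binder of the mouse IL-21 receptor α chain, so that 1 molecule engages both receptors. The third was preconditioned with sIL-2 + IL-21 as separate cytokines and then received sIL-2 alone in the animal, so its difference from the first group lies in the preconditioning and its values are given as "after sIL-2 + IL-21". Each group was 1 library, and the number of mice behind a library is not given in the sources used here. Differences between treatments therefore carry no replicate check and no p-value, and every interval printed for them covers counting error only. Irradiated hosts keep their own cells, and the sort relied on Thy1.1 and CD8, so neither marker is a finding here.

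In the alpha-beta TCR, the alpha and beta chains bind the peptide antigen and have almost no cytoplasmic tail. The signal is carried by the associated CD3 chains: CD3γ, CD3δ and CD3ε, encoded by Cd3g, Cd3d and Cd3e, and the ζ chain, encoded by Cd247, all of which hold the tyrosine motifs that Lck phosphorylates and to which ZAP-70 binds. Trac encodes the alpha constant region and Trbc1 and Trbc2 the alternative beta constant regions, while Trbv14 and Trbv13-1 are variable segments of the beta chain. A CD8+ T cell normally carries 1 beta chain at its surface. The pmel-1 beta chain is known as Vβ13, which in the present nomenclature is Trbv14.

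Some of these genes can be confused with each other in short reads, so the stretches that tell them apart are shown first. In the mouse transcripts of GENCODE for GRCm38, the coding parts of Trbc1 and Trbc2 were 518 bases long each, differed at 23 bases and were 95.6% identical. Of the 23 differences, 1 lay in the first 375 bases and 22 in the last 143, which are printed below 5′ to 3′ in the sense of the gene (coding bases 376 to 518), with the differing bases in capitals.
Trbc1: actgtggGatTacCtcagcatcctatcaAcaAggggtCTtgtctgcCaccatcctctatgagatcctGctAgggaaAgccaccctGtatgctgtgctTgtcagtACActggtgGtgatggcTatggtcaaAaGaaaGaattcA
Trbc2: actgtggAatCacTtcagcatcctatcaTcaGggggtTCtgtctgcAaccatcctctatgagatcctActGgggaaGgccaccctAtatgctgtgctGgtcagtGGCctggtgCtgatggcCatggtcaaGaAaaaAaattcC
The longest run of bases both coding parts shared was 259. After the coding part, where reads of a 3′ library gather, the longest shared run was 8 bases. Reads from the transcript ends could therefore be assigned to 1 of the genes, whereas reads from the first part of the coding region could not, and the split of UMIs (unique molecular identifiers, each a captured RNA molecule) between Trbc1 and Trbc2 is uncertain to that extent.

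The variable segments were far less alike. Set side by side from their 3′ ends without gaps, the coding parts of Trbv14 and Trbv13-1 differed at 233 of 334 positions and matched at 30.2%. No gapped alignment was made, so this is not a full sequence identity. The longest shared run was 14. The last 90 coding bases of each are given because they hold the conserved cysteine codon at which the antigen-binding CDR3 loop begins (coding bases 257 to 346 of Trbv14 and 245 to 334 of Trbv13-1, differing bases in capitals).
Trbv14: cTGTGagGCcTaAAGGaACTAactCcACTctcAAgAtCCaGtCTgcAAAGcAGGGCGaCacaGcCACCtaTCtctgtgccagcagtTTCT
Trbv13-1: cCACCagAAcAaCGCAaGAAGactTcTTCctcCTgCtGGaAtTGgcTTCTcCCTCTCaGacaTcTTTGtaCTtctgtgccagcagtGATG
Even here 49 of the 90 bases differed.

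After quality control 7760 cells remained with sIL-2, 13299 with the IL-2/21-Trikine and 9798 after sIL-2 + IL-21, at median depths of 12882.5, 10254 and 14055.5 UMIs per cell. Between 18 and 41 cell barcodes were shared by any pair of libraries, at most 0.418% of a library. The CD8 T cell label held: Cd8a reached 372, 314 and 232 CPM (UMIs of the gene per 1000000 UMIs of the library) and Cd8b1 563, 490 and 437, against at most 1.21 for Cd4. The gamma-delta T cell genes Trdc, Trgc1, Trgc2 and Trgc4 summed to 178, 101 and 74.1 CPM, and Trgc4 alone was counted in 52.0% of the cells with sIL-2, 23.4% with the Trikine and 20.3% after sIL-2 + IL-21. Barcodes with at least 3 of 9 myeloid markers numbered 22, 42 and 14, those with at least 3 of 5 melanoma markers 12, 19 and 4. The summed myeloid markers lay at 36.3, 31.4 and 21.0 CPM. Ratios between libraries were also taken without the myeloid- and melanoma-marker barcodes and are given with the other settings at the end. The class comparisons were not repeated without them. Trbc2 was counted in 99.5%, 99.6% and 99.6% of the cells before thinning, so most cells with Trgc4 also held Trbc2. Why the gamma-delta genes were counted was not tested.

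The 4 CD3 genes had their highest level with sIL-2 in every case. Cd3g stood at 1503 CPM with sIL-2, 1371 with the IL-2/21-Trikine and 1356 after sIL-2 + IL-21. Cd3d stood at 772, 700 and 673 CPM in the same order. Cd3e stood at 724, 617 and 601 CPM. The last 2 libraries thus lay close together for each of these genes. Cd247, the chain with the most phosphorylation motifs in the complex, was counted at 228, 184 and 178 CPM, and it too separated sIL-2 from the other 2 libraries more than it separated those from each other. In UMIs per cell, which follow the depth of a library, Cd3d came to 13.0, 8.78 and 11.5.

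Among the receptor chains, Trac fell into 3 distinct levels, at 958 CPM with sIL-2, 793 with the Trikine and 680 after sIL-2 + IL-21. Trbc2 was counted at 11597, 11129 and 9724 CPM, the last library standing apart. Trbc1 was counted at 628, 614 and 580 CPM, the narrowest spread of the 9. Trbv14, the pmel-1 beta segment, stood at 536, 507 and 451 CPM. Trbv13-1 stood at 9.41, 7.45 and 6.25 CPM. All 9 members had the order sIL-2, Trikine, sIL-2 + IL-21 over whole libraries. How many of all genes had this order was not counted. It also depended on the scaling: with TMM factors 5 of 8 members were lower with the Trikine than with sIL-2. In cells of 10000 to 20000 UMIs, a range chosen after the data had been seen, sIL-2 was still highest for all 9, but the Trikine was lowest for Cd3d, Cd3e, Cd3g, Cd247, Trbv14 and Trbv13-1. There Cd3e stood at 808, 648 and 697 CPM, Cd3g at 1594, 1438 and 1541, and Trac at 1074, 815 and 772. Levels of different genes are not compared further, because the counts are of captured 3′ ends together with reads from introns and are not per length.

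**Figure D1:**
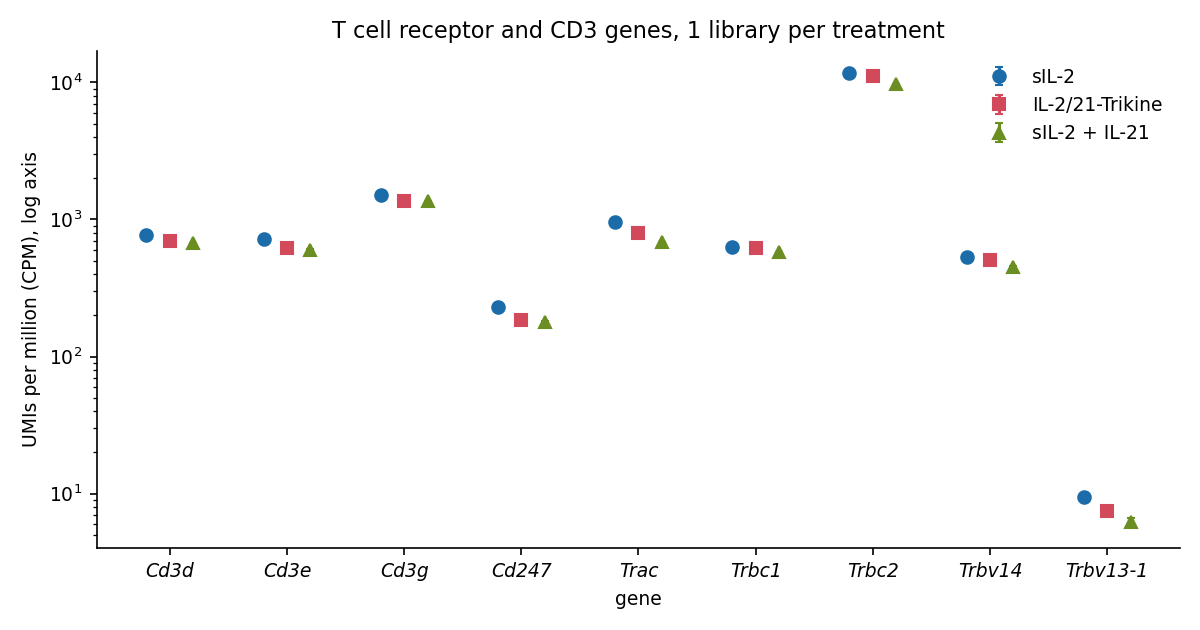
Level of each of the 9 genes (vertical axis, CPM on a log axis) in the 3 libraries, with bars for the 95% counting interval, mostly smaller than the symbols. Within each gene the sIL-2 library (circle) is highest and sIL-2 + IL-21 (triangle) lowest, with Trac at 958, 793 and 680 and Trbc1 at 628, 614 and 580.

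To set these differences against those of other genes, a log2 ratio of at least 0.25 between 2 libraries was counted among genes of at least 50 CPM, which took in 8 of the 9 members and left out Trbv13-1. With the IL-2/21-Trikine against sIL-2, 2 of the 8 members were lower by that much and 0 were higher. They were Cd247 at -0.31 (95% counting interval -0.33 to -0.28) and Trac at -0.27 (-0.28 to -0.26). Cd3e followed at -0.23, Cd3d at -0.14, Cd3g at -0.13, and Trbv14, Trbc2 and Trbc1 at -0.08, -0.06 and -0.03. Of all 2983 genes tested, 22.1% were lower and 12.2% higher by the same measure, so 2 of 8 lower was near the background. The median of the members was -0.14 and that of all genes -0.05. With TMM scaling, which moved the median of all genes by 0.10, 0 members passed, Trbc1, Trbc2 and Trbv14 turned to 0.07, 0.04 and 0.02, and 21.8% of all genes were higher and 11.6% lower. In cells of 10000 to 20000 UMIs 3 members passed, Trac at -0.40, Cd247 at -0.36 and Cd3e at -0.32. There 31.2% of all genes were lower and 18.4% higher by the same measure.

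The members differed least between the Trikine library and the library preconditioned with both cytokines, given with the Trikine in the numerator. None of the 8 members passed 0.25 in either direction (0 higher and 0 lower), where 11.5% of 2928 genes were higher and 10.6% lower. Trac was nearest, at 0.22 (0.21 to 0.23), followed by Trbc2 at 0.19 and Trbv14 at 0.17. The CD3 genes ranged from 0.02 for Cd3g to 0.06 for Cd3d. Among non-cycling cells alone 6 of the 8 members lay below 0 in this comparison, and Trac stood at 0.13. In cells of 10000 to 20000 UMIs 5 of the 8 lay below 0, from -0.11 for Cd3e, with Trac at 0.08.

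The members moved most when the sIL-2 library was set against that preconditioned with both cytokines. Trac was higher with sIL-2 by 0.50 (0.48 to 0.51), Cd247 by 0.35 (0.33 to 0.38), Cd3e by 0.27 (0.26 to 0.28) and Trbc2 by 0.25 (0.25 to 0.26). Trbv14 lay just outside the limit at 0.248 and Trbc2 just inside it at 0.254. Cd3d, Cd3g and Trbc1 stood at 0.20, 0.15 and 0.12. In all 4 of 8 members were higher and 0 lower, beside 29.4% of 2990 genes higher and 18.8% lower, and the median was 0.25 for the members and 0.04 for all genes. TMM scaling left Trac at 0.40 and Cd247 at 0.25, the 2 members past the limit there, with 20.2% of all genes higher and 29.2% lower. Among non-cycling cells alone Trac stood at 0.32 and Cd247 at 0.28, the 2 members past the limit, while Trbc1 stood at -0.03. The median there was 0.075 for the members and 0.088 for all genes, of which 26.4% were higher and 9.73% lower. In cells of 10000 to 20000 UMIs Trac stood at 0.48 and Cd247 at 0.31, and no other member passed. There 30.9% of all genes were higher and 17.9% lower.

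Signaling genes that act next to the receptor moved in the same direction, with medians of -0.28, 0.16 and 0.43 in the 3 comparisons where the members had -0.14, 0.07 and 0.25. Of a list of 42 kinases, adaptors, coreceptors and phosphatases of TCR signaling, 18 of 32 with enough counts were lower with the Trikine than with sIL-2 and 0 were higher, beside 22.1% and 12.2% of all genes. With TMM scaling 10 of 31 were lower and 1 higher, beside 11.6% and 21.8% of all genes. Txk, a Tec-family kinase, stood at -0.72, Dgka, the diacylglycerol kinase that dampens TCR signaling, at -0.56, and Fyn, a Src-family kinase, at -0.55. Against sIL-2 + IL-21 the Trikine had 12 of 31 higher and 0 lower, beside 11.5% and 10.6% of all genes, led by Prkcq, the protein kinase C-θ gene, at 0.51, the inhibitory receptor gene Cd5 at 0.47 and the adaptor gene Sla at 0.44. In non-cycling cells alone 3 of 31 were higher and 2 lower, and in cells of 10000 to 20000 UMIs 2 of 30 and 1. With sIL-2 against sIL-2 + IL-21, 27 of 32 were higher and 0 lower, beside 29.4% and 18.8% of all genes. Among the higher were Fyn at 0.97, Dgka at 0.89 and Sla at 0.84. With TMM scaling 20 of 32 were higher and 0 lower, beside 20.2% and 29.2% of all genes. The 3 comparisons use the same 3 libraries and are not independent of one another.

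The share of cells with at least 1 UMI was compared after every cell of at least 2000 UMIs had been thinned to 2000, which kept 7494, 11524 and 9434 cells. Trac was seen in 81.6% of the cells with sIL-2 (95% exact binomial interval 80.7 to 82.5), 76.7% with the Trikine (75.9 to 77.4) and 72.1% after sIL-2 + IL-21 (71.1 to 73.0), 3 shares whose counting intervals did not overlap. Before thinning the shares were 96.3%, 90.3% and 95.7%, lowest in the shallowest library. Cd3e was seen in 76.8%, 71.7% and 71.2% at equal depth and in 96.9%, 90.1% and 96.3% before thinning.

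Of the other CD3 chains, Cd3d was seen in 77.9%, 75.4% and 73.7% of thinned cells and Cd3g in 91.6%, 90.6% and 90.7%. Cd247 was seen in 36.8%, 31.7% and 31.0%. Without thinning these ranged from 74.4% for Cd247 with the Trikine to 97.1% for Cd3g with sIL-2. Trbc2 was seen in nearly every thinned cell, 99.8%, 99.9% and 99.9%, and Trbc1 in 61.5%, 61.3% and 60.3%. Trbv14 was seen in 63.6%, 61.6% and 58.1% and Trbv13-1 in 2.11%, 1.75% and 1.56%. In 8 of the 9 members the sIL-2 library thus had the highest share, Trbc2 being the exception. How many of all genes had their highest share with sIL-2 was not counted. Unthinned, Trbc2, Trbc1, Trbv14 and Trbv13-1 were seen in 99.5%, 91.2%, 94.3% and 14.0% of the cells with sIL-2.

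TCR UMIs were also counted in barcodes with markers of cells that should lack these genes. Among 73 thinned myeloid-marker barcodes, whose median depth before thinning was 20851 UMIs, Cd3d was seen in 49.3% (37.4 to 61.3), Trac in 58.9% (46.8 to 70.3), Cd247 in 24.7% (15.3 to 36.1) and Trbc2 in 84.9%. Each of these shares was below the one in every library, although the interval of Cd247 includes the shares of the Trikine and sIL-2 + IL-21 libraries. For Trbv13-1 the share was 1.37% (0.03 to 7.40), an interval that includes the share in all 3 libraries. Melanoma-marker barcodes, 26 after thinning, had Cd3d in 38.5% and Trbc2 in 69.2%. Whether these UMIs came from free RNA or from T cells caught in the same droplet was not tested, and no doublet caller was run.

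**Figure D2:**
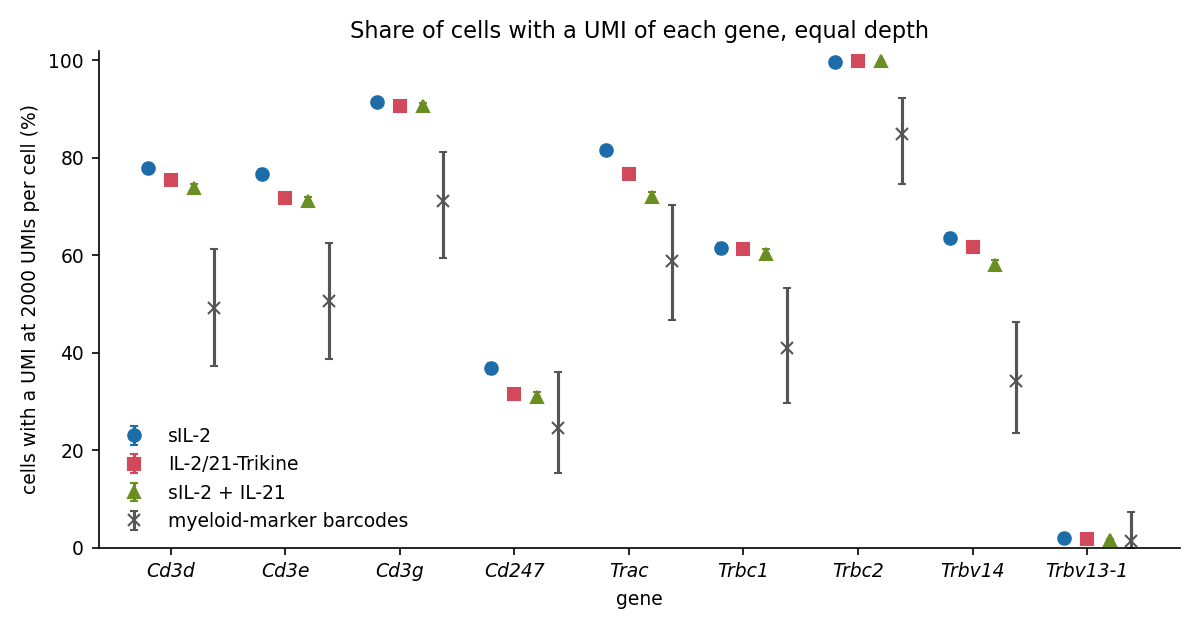
Share of cells with at least 1 UMI of each gene after thinning to 2000 UMIs per cell (vertical axis, percent), in the 3 libraries and in myeloid-marker barcodes of all libraries together (crosses), with 95% exact binomial intervals. Trac descends from 81.6% to 76.7% and 72.1%, while the myeloid-marker barcodes lie below all libraries for each gene but have a Trbv13-1 interval of 0.03% to 7.40% that spans them.

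The 4 CD3 genes, and the 7 CD3 and constant-region genes, were seen together in a thinned cell more often with sIL-2. All 4 CD3 genes had a UMI in 21.3% of thinned cells with sIL-2 (20.4 to 22.3), 16.6% with the Trikine (15.9 to 17.3) and 16.0% after sIL-2 + IL-21 (15.2 to 16.7). A CD3 gene together with an alpha and a beta constant gene was seen in 81.2%, 76.1% and 71.4%. All 7 CD3 and constant-region genes were seen in 11.3%, 8.07% and 7.37% of the cells, and the median cell held 5 of the 7 in each library. Cells with none of the 4 CD3 genes made up 0.921%, 0.902% and 1.13% after thinning. At full depth only 10, 17 and 7 cells held no CD3 UMI, and 1, 8 and 4 of these were myeloid- or melanoma-marker barcodes.

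The variance of the CD3 genes between thinned cells was set against their mean. These means were low, from 0.38 UMIs per cell for Cd247 after sIL-2 + IL-21 to 3.07 for Cd3g with sIL-2. At low means sampling holds the ratio near 1, so it says little about how much cells differed. The variance was 1.13, 1.11 and 1.17 times the mean for Cd3d, against 1 for pure sampling, and 1.41 to 1.47 times for Cd3g. Trac had 1.44 to 1.55 and Trbc1 1.77 to 1.81. Trbc2, counted at a much higher level, had 5.26, 4.78 and 5.46. The ratio was thus highest for Trbc2, followed by Trbc1. It rises with the level of a gene, so it does not rank the genes by how much cells differed.

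The proportions of the CD3 chains were nearly constant between libraries. Cd3g made up 46.6% of the UMIs of the 4 CD3 genes with sIL-2, 47.7% with the Trikine and 48.3% after sIL-2 + IL-21. Cd3d made up 23.9%, 24.4% and 24.0%, and Cd3e 22.4%, 21.5% and 21.4%. Cd247 made up 7.07% (6.99 to 7.15), 6.42% (6.35 to 6.49) and 6.35% (6.28 to 6.42). The largest of these shifts between libraries, that of Cd3g, was 1.72 percentage points. Each library held 420057 to 479035 UMIs of these genes, so that counting error was under 0.2 points.

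Relative to the beta chain the alpha chain fell in the same order as its level. There were 7.84 Trac UMIs per 100 UMIs of Trbc1 and Trbc2 with sIL-2, 6.75 with the Trikine and 6.60 after sIL-2 + IL-21. UMIs of the CD3 genes per 100 beta constant UMIs came to 26.4, 24.5 and 27.3, an order that no single member showed. Trbc1 took 5.14%, 5.23% and 5.62% of the beta constant UMIs.

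Almost all beta variable UMIs belonged to the transgenic segment. Of 35 Trbv segments, with 71179, 86085 and 77234 UMIs in total, only Trbv14 and Trbv13-1 held 1% or more in any library. Trbv14 held 98.0%, 98.3% and 98.1% and Trbv13-1 1.72% (1.63 to 1.82), 1.44% and 1.36%. Of cells with at least 10000 UMIs, 99.1%, 99.4% and 99.5% had a Trbv14 UMI.

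Trbv13-1 was found in cells that also carried Trbv14. Of 1087, 1150 and 953 cells with a Trbv13-1 UMI, 98.5%, 97.9% and 98.5% held Trbv14, compared with 94.3%, 90.1% and 93.5% of all cells. The Trbv13-1 cells were also deeper, with medians of 17330, 15260 and 18244 UMIs, and 969, 1065 and 863 of them held a single Trbv13-1 UMI. The most in any cell was 6. At equal depth Trbv13-1 was seen in 2.06%, 1.83% and 1.95% of cells with Trbv14 and in 2.20%, 1.63% and 1.01% of cells without it, with intervals that overlapped for sIL-2 and the Trikine and not for sIL-2 + IL-21 (1.60 to 2.36 and 0.723 to 1.37). Trbc2 stood at 11665, 11155 and 9826 CPM in Trbv13-1 cells and 11581, 11125 and 9710 in the others.

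Alpha variable segments were hardly captured. The 130 Trav segments together had 2342, 2644 and 2085 UMIs, or 18.0, 15.9 and 12.4 CPM, where Trbv segments had 547, 516 and 460 CPM. No Trav segment stood out: Trav3-3 had the largest share with 7.34%, 9.11% and 8.11% of Trav UMIs, and 30 segments held 1% or more in some library. Variable segments of both chains lie at the 5′ end of the rearranged transcript, and the library counts 3′ ends. Why Trav segments had fewer UMIs than Trbv segments was not tested. The low count is not read as a measure of which alpha chain the cells used.

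Cycling cells were those with at least 5 UMIs of 48 S phase and G2/M genes after thinning, and non-cycling cells those with at most 1. Over all depths, all 9 members took a smaller part of the RNA in cycling cells, in each library. They numbered 1140, 3161 and 3523 cells, 15.2%, 27.4% and 37.3% of thinned cells, with 117, 312 and 349 of them exactly at the limit. Trac fell from 1061 CPM in non-cycling to 748 in cycling cells with sIL-2, from 929 to 660 with the Trikine and from 850 to 583 after sIL-2 + IL-21. In no library did the direction differ. The fitted log2 change was -0.53 ± 0.05 (SE), with an adjusted p of 3.7e-05 from edgeR's quasi-likelihood test across all genes, in which the 3 libraries serve as the replicates and a library term takes up the treatment.

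The beta chain and the CD3 genes followed. Trbv14 changed by -0.46 ± 0.06 (adjusted p = 0.000218) and Trbc2 by -0.32 ± 0.05 (adjusted p = 0.00125), Trbc2 passing from 12262 to 10007, 11888 to 10307 and 11467 to 8549 CPM. Cd3e changed by -0.41 ± 0.05 (adjusted p = 0.000179) and Cd3d by -0.34 ± 0.05 (adjusted p = 0.000504). Cd247 and Trbc1 changed by -0.27 and -0.28, Trbv13-1 by -0.45 ± 0.08. The smallest change was that of Cd3g, -0.23 ± 0.05 (adjusted p = 0.00642), with 1549 and 1393, 1446 and 1289, and 1542 and 1229 CPM. Of all 14244 genes tested 25.0% were lower and 24.9% higher in cycling cells, and 9 of 9 members were lower. The median was -0.34 for the members and -0.02 for all genes. Without the sIL-2 + IL-21 library the call on Cd3g was lost (-0.17, adjusted p = 0.0515). Without the library term 4 members were called here (Cd3d, Cd3e, Trac and Trbv14), where 1280 of all 14292 genes were lower and 1971 higher. In each of the classes that follow 0 members were called without it. Over all genes 5 were then lower and 34 higher for cytokine-positive cells. For granzyme C to G-positive cells 325 and 283 were called, and for Gzmb-positive cells 0 and 1.

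Cycling cells hold more RNA, and per cell the members rose. Median depth was 27789, 20239 and 22941 UMIs in cycling and 11607.5, 9148 and 10118 in non-cycling cells. Trac came to 23.3 against 15.1, 14.7 against 9.87 and 14.9 against 10.2 UMIs per cell, and Trbc2 to 312 against 174, 229 against 126 and 218 against 137. The lower CPM was thus a smaller share of a larger total. In cells of 10000 to 20000 UMIs, a range chosen after seeing the data, 6 members were called lower, with Trbv14 at -0.30, Trbc2 at -0.26, Trac at -0.25, Trbc1 at -0.22, Cd3e at -0.19 and Cd3d at -0.18. Of all 12327 genes tested there, 1920 were lower and 2078 higher. Cd247 at -0.13, Cd3g at -0.09 and Trbv13-1 at -0.22 did not pass there (adjusted p = 0.085, 0.19 and 0.21). By library, Cd3g stood there at -0.04 with sIL-2, 0.08 (0.05 to 0.10) with the Trikine and -0.11 after sIL-2 + IL-21. Cd247 stood at 0.24 (0.08 to 0.40) with the Trikine in cells of 5000 to 10000 UMIs. In cells of at least 20000 UMIs every member lay below 0 in each library.

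The drop was present in both parts of the cycle. Relative to non-cycling cells Trac stood at -0.62, -0.58 and -0.69 in the 362, 1140 and 1120 cells in which S phase genes led, and at -0.45, -0.44 and -0.47 in the 732, 1853 and 2201 cells in which G2/M genes led. With the cytokine and granzyme states held constant, all 9 members were below 0 in 12 of 12 strata of library and state. Of the TCR signaling list, 34 of 42 genes were lower and 2 higher in cycling cells, beside 25.0% and 24.9% of all genes. The adaptor genes Trat1 and Lax1 changed by -1.11 and -0.87 and Dgka by -0.89, while the adaptor gene Sit1 and the phosphatase gene Ptpn6 rose by 0.27 and 0.17.

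**Figure D3:**
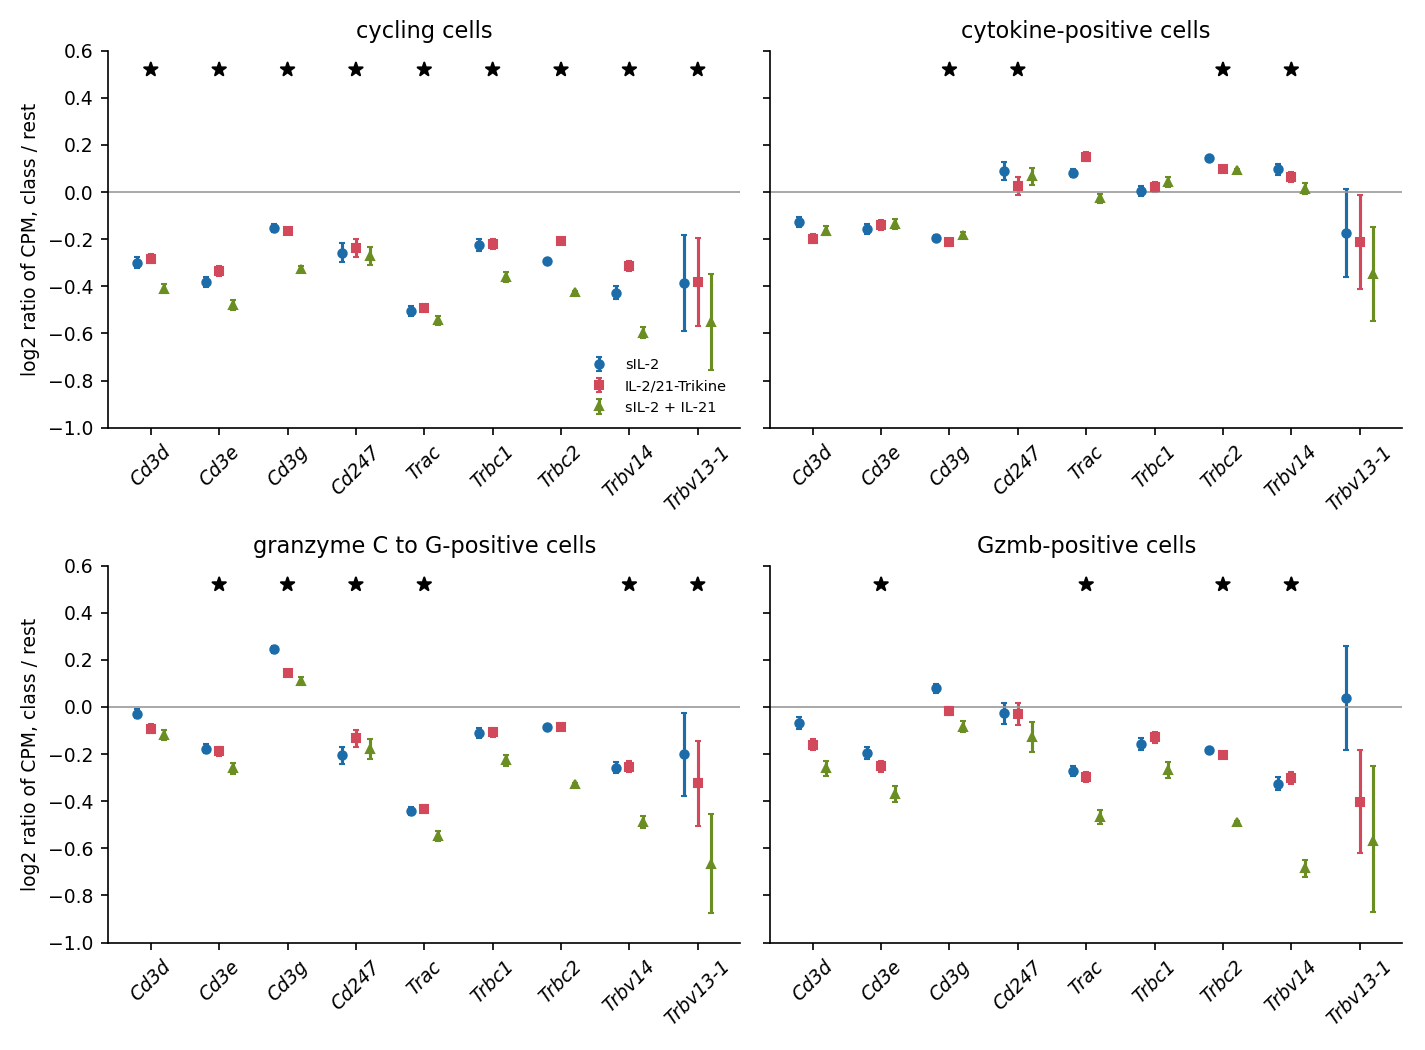
Log2 ratio of CPM between the cells inside and outside each of 4 classes (vertical axis) for each gene and library, with 95% counting intervals; cells between the limits of a class are in neither, and a star marks genes with an adjusted p under 0.05 in the fit over the 3 libraries. All points lie below 0 for cycling cells, Cd3g alone has all 3 libraries above 0 for granzyme C to G-positive cells, and in cytokine-positive cells Cd3d, Cd3e and Cd3g lie below and Trbc2 above 0.

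In cytokine-positive cells members moved in both directions. The class held cells with at least 2 UMIs of Ifng, Tnf, Il2, Il3, Csf2 and Lta together after thinning, against cells with 0, and comprised 2099, 2492 and 3022 cells or 28.0%, 21.6% and 32.0%, of which 576, 785 and 875 held exactly 2. Trbc2 rose in these cells, from 11133 to 12297 CPM with sIL-2, from 10921 to 11697 with the Trikine and from 9463 to 10088 after sIL-2 + IL-21. Cd3g fell, from 1576 to 1377, from 1440 to 1242 and from 1431 to 1260. Both directions held in each library. The fitted changes were 0.17 ± 0.04 for Trbc2 (adjusted p = 0.0053) and -0.14 ± 0.03 for Cd3g (adjusted p = 0.0136). Cd3g lost its call when thinned UMIs were summed, at -0.07 (adjusted p = 0.155), and in cells of 10000 to 20000 UMIs, at -0.09 (adjusted p = 0.152).

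Cd247 and Trbv14 rose by 0.12 each (SE 0.04, adjusted p = 0.0287 and 0.0429). Cd3d at -0.10, Cd3e at -0.08, Trac at 0.13, Trbc1 at 0.09 and Trbv13-1 at -0.18 did not pass, with adjusted p between 0.0592 and 0.0881. So 1 of 9 members was called lower and 3 higher, beside 20.9% lower and 21.2% higher of 14307 genes. The balance depended on the gate. With a looser gate of at least 1 UMI, Cd3d, Cd3g and Trbv13-1 were lower and only Trbc2 higher. The calls on Cd247 and Trbv14 were lost, where 2671 of all 14574 genes were lower and 2804 higher. With a stricter gate of at least 4 UMIs, 1 member was lower and 5 higher, where 3251 of 13788 genes were lower and 3250 higher. Scaled by library totals alone, a choice added after seeing the data, 4 members were lower (Cd3d, Cd3e, Cd3g and Trbv13-1, at -0.16, -0.15, -0.20 and -0.24) and only Trbc2 remained higher, at 0.11, and the genes called over all moved from 2992 lower and 3036 higher to 4256 lower and 2471 higher. Cd3g lost its call without the Trikine library (adjusted p = 0.0872), Cd247 without sIL-2 (adjusted p = 0.194) and Trbv14 without either (adjusted p = 0.198 without sIL-2 and 0.0627 without the Trikine). Within 10000 to 20000 UMIs 5 members were higher (Trac 0.31, Trbv14 0.30, Trbc2 0.28, Cd247 0.16 and Trbc1 0.14) and 0 lower. Of all 12297 genes tested there, 2523 were higher and 2339 lower.

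Proportions between chains do not depend on how a library is scaled, but they can differ with depth and were not compared at matched depth. UMIs of the CD3 genes per 100 beta constant UMIs were 23.4 in cytokine-positive and 28.5 in cytokine-negative cells with sIL-2, 21.5 and 25.9 with the Trikine, and 24.8 and 29.4 after sIL-2 + IL-21. Among the CD3 genes Cd247 took 7.80% against 6.61%, 7.04% against 6.11% and 6.94% against 5.96%. Trbc1 took 4.86% against 5.32%, 5.08% against 5.34% and 5.55% against 5.73% of beta constant UMIs. All 3 libraries moved the same way in each of these proportions. With the cycling and granzyme states held constant, Cd3d, Cd3e and Cd3g were below 0 and Trbc2 above 0 in 12 of 12 strata. The other members were mixed, with Cd247 below 0 in 4 strata, Trac and Trbv14 in 2 each, Trbc1 in 5 and Trbv13-1 in 8. The strata were not matched for depth. Within 10000 to 20000 UMIs Cd3e stood at 0.01 after sIL-2 + IL-21.

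Of the 42 genes of the signaling list 17 were lower and 11 higher in cytokine-positive cells, beside 20.9% and 21.2% of all genes. The 11 of 42 higher were near that share. Grap2, an adaptor that binds SLP-76, changed by -0.74, Txk by -0.67 and Dgka by -0.66. Ubash3b, a phosphatase gene, rose by 0.48, and Lcp2 and Lat, which encode the adaptors SLP-76 and LAT that assemble downstream of ZAP-70, rose by 0.41 and 0.38. Cytokine-positive cells had median depths of 16850, 13680 and 17298 UMIs against 11931, 10825 and 12853.5.

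In granzyme C to G-positive cells Trac and Cd3g moved apart. These cells held at least 2 UMIs of Gzmc, Gzmd, Gzme, Gzmf and Gzmg after thinning, against 0, and numbered 2172, 3181 and 5657, or 29.0%, 27.6% and 59.96%. Trac fell from 1090 to 803 CPM with sIL-2, from 897 to 665 with the Trikine and from 891 to 610 after sIL-2 + IL-21. Cd3g rose from 1391 to 1647, from 1318 to 1458 and from 1278 to 1380. The fitted changes were -0.43 ± 0.05 for Trac (adjusted p = 0.000299) and 0.21 ± 0.05 for Cd3g (adjusted p = 0.0111), and these 2 were also the members called within 10000 to 20000 UMIs, at -0.28 and 0.37. In that range 2390 of all 12578 genes were lower and 2303 higher. Over all depths the Cd3g call was lost when the sIL-2 library was left out (0.16, adjusted p = 0.0551).

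The remaining calls were not made within that range of depth, which also holds fewer cells. Trbv14 changed by -0.29 ± 0.06 (adjusted p = 0.00407), Trbv13-1 by -0.35 ± 0.10 (adjusted p = 0.0242), Cd3e by -0.17 ± 0.04 (adjusted p = 0.0141) and Cd247 by -0.13 ± 0.04 (adjusted p = 0.0219), and within 10000 to 20000 UMIs these 4 stood at -0.14, -0.06, 0.02 and -0.00073. With thinned UMIs only Trbv13-1 of the 6 called members lost its call (-0.33, adjusted p = 0.145). Cd3d at -0.04, Trbc1 at -0.11 and Trbc2 at -0.13 did not pass (adjusted p = 0.495, 0.0835 and 0.162). Within each range of depth Cd3d lay above 0 in all 3 libraries, although depth was not matched inside a range. It stood at 0.02 to 0.07 in cells of 5000 to 10000 UMIs, 0.02 to 0.10 at 10000 to 20000 and 0.01 to 0.13 from 20000. The granzyme C to G-positive cells had median depths of 21194, 17009 and 18659 UMIs against 10886, 9779 and 9455. In all 5 members were lower and 1 higher, beside 22.2% lower and 24.1% higher of 14294 genes. The call on Cd247 was lost without any 1 of the 3 libraries, and those on Cd3e and Trbv13-1 without the sIL-2 + IL-21 library (adjusted p = 0.0909 and 0.117).

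The CD3 proportions shifted most along this class. Cd3g made up 49.9% of CD3 UMIs in granzyme C to G-positive and 43.8% in negative cells with sIL-2, 50.6% and 45.7% with the Trikine, and 49.6% and 44.5% after sIL-2 + IL-21. Cd3e made up 20.5% and 24.1%, 19.9% and 22.6%, and 20.5% and 23.9%. There were 6.77 and 8.68, 5.84 and 7.43, and 6.30 and 7.36 Trac UMIs per 100 beta constant UMIs. These differences within a library were several points, beside 1.72 points for Cd3g between libraries. The Cd3g share also rose with depth. It was 43.4%, 46.1% and 46.1% in cells of 5000 to 10000 UMIs and 48.1%, 48.7% and 49.0% from 20000. Proportions by class were not taken at matched depth. In each of 12 strata of library, cycling and cytokine state Cd3g was above 0 and Trac below 0. Of the other members called, Cd3e and Trbv14 were below 0 in 11 strata, Cd247 in 10 and Trbv13-1 in 8.

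**Figure D4:**
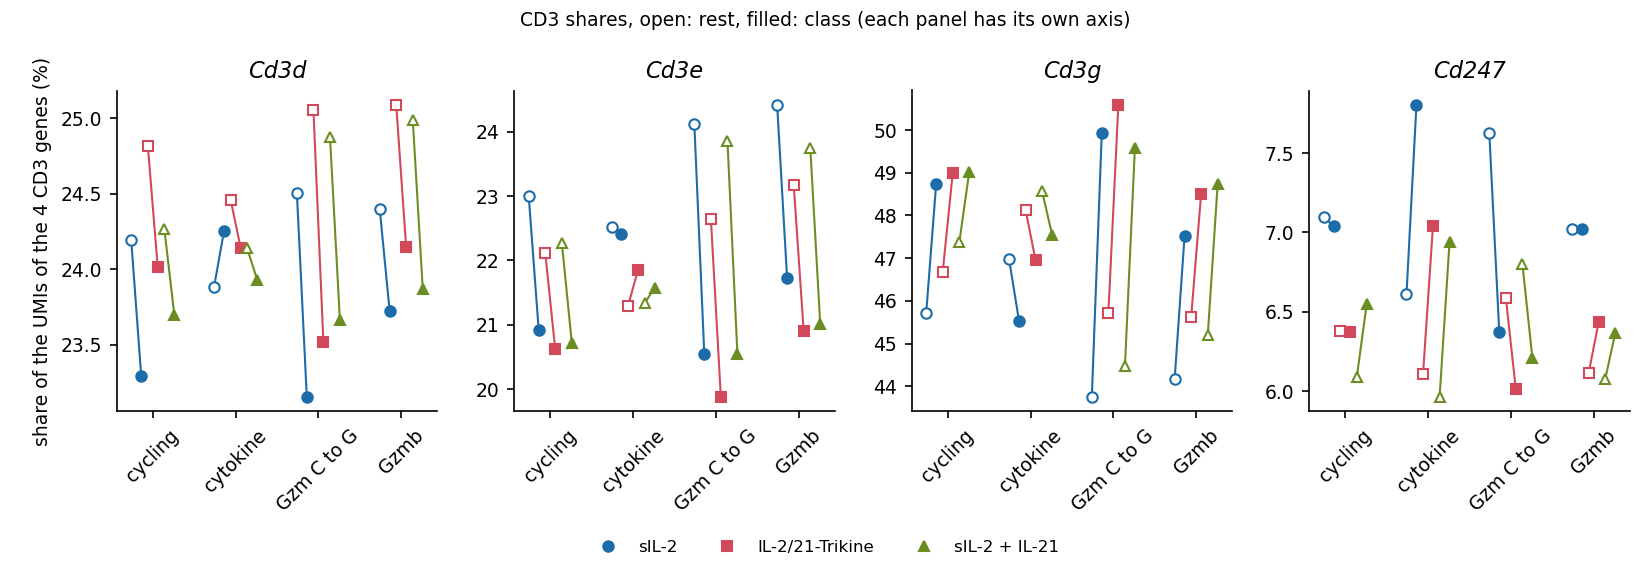
Share of Cd3d, Cd3e, Cd3g and Cd247 in the UMIs of the 4 CD3 genes (vertical axes, percent, each panel with its own range that does not start at 0) in cells outside (open) and inside (filled) each class, joined for each library. The steepest lines are those of Cd3g in granzyme C to G-positive cells, from 43.8% to 49.9%, 45.7% to 50.6% and 44.5% to 49.6%, and Cd247 rises in cytokine-positive cells in all 3 libraries.

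Among the 42 signaling genes 28 were lower and 4 higher in granzyme C to G-positive cells, beside 22.2% and 24.1% of all genes. Trat1, whose product associates with the TCR, changed by -1.90, Cd5 by -0.86 and Sla by -0.81. Sla2, an adaptor gene related to Sla, rose by 0.62, Txk by 0.43 and Sit1 by 0.41.

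Gzmb-positive cells, with at least 2 Gzmb UMIs after thinning against 0, made up 62.0%, 65.2% and 79.4% of thinned cells. Trbv14 was lower in them, at 507 against 635, 476 against 587 and 424 against 683 CPM, a change of -0.37 ± 0.08 (adjusted p = 0.0124). Trac changed by -0.28 ± 0.05 (adjusted p = 0.00986), Trbc2 by -0.23 ± 0.06 (adjusted p = 0.0319) and Cd3e by -0.21 ± 0.05 (adjusted p = 0.0257). In every library these 4 genes lay below the Gzmb-negative cells. The other members did not pass, with Cd247 at 0.00 and Cd3g at 0.06. In all 4 of 9 were lower and 0 higher, beside 9.71% lower and 13.1% higher of 14289 genes.

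Other settings changed the calls of this class too. Gzmb-positive cells had median depths of 15763, 12972.5 and 16506 UMIs against 10708, 9469 and 9319.5. Within 10000 to 20000 UMIs Trbc2 at -0.16 and Trbv14 at -0.24 were called lower and Cd3g at 0.19 higher. Of all 12260 genes tested there, 646 were lower and 997 higher. Without the sIL-2 library the calls on Cd3e and Trbc2 were lost (adjusted p = 0.0734 and 0.0605), and without the Trikine library that on Cd3e (adjusted p = 0.0638). Scaled by library totals alone 6 members were lower, while the genes called over all moved from 1388 lower and 1868 higher to 2042 lower and 1309 higher. Of the 42 genes of the signaling list 21 were lower and 4 higher, beside 9.71% and 13.1% of all genes. Those lower were led by Trat1 at -1.24, Cd5 at -0.64 and Sla at -0.63. Among those higher were Sla2 at 0.42 and Sit1 and Txk at 0.32 each.

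Members varied together to different degrees over the 24 sums of cells made by crossing library, cycling, cytokine and granzyme C to G state, each of 118 to 2306 cells. After the mean of each library was removed, the log2 CPM of Cd3d and Cd3e had a Pearson correlation of 0.90, that of Trbc1 and Trbc2 0.89, and that of Trac and Trbc1 0.84. Cd3g and Trac had 0.01. These sums share libraries and depth, so the values are descriptions without a p. Cd3g followed Cd3d (0.84) and, less closely, Cd3e (0.57). It had only 0.19 with Cd247, 0.25 with Trbc2 and 0.29 with Trbc1. The sums are built from the classes compared above, so these values in part restate the class differences.

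Of 2981 genes of at least 50 CPM, those most like each member over the same 24 sums were named. Trac was closest to Fyn (0.98), followed by Gpr174 and Cdk17. Trbc2 and Trbc1 were both closest to Trbv14 (0.94 and 0.91) and next to the coreceptor gene Cd8a (0.94 and 0.90). Cd3d was closest to Pfdn5 (0.98), Cd3e to Btg1 (0.98), Cd3g to Fxyd5 (0.96) and Cd247 to Zfand3 (0.87), the lowest of these values.

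**Figure D5:**
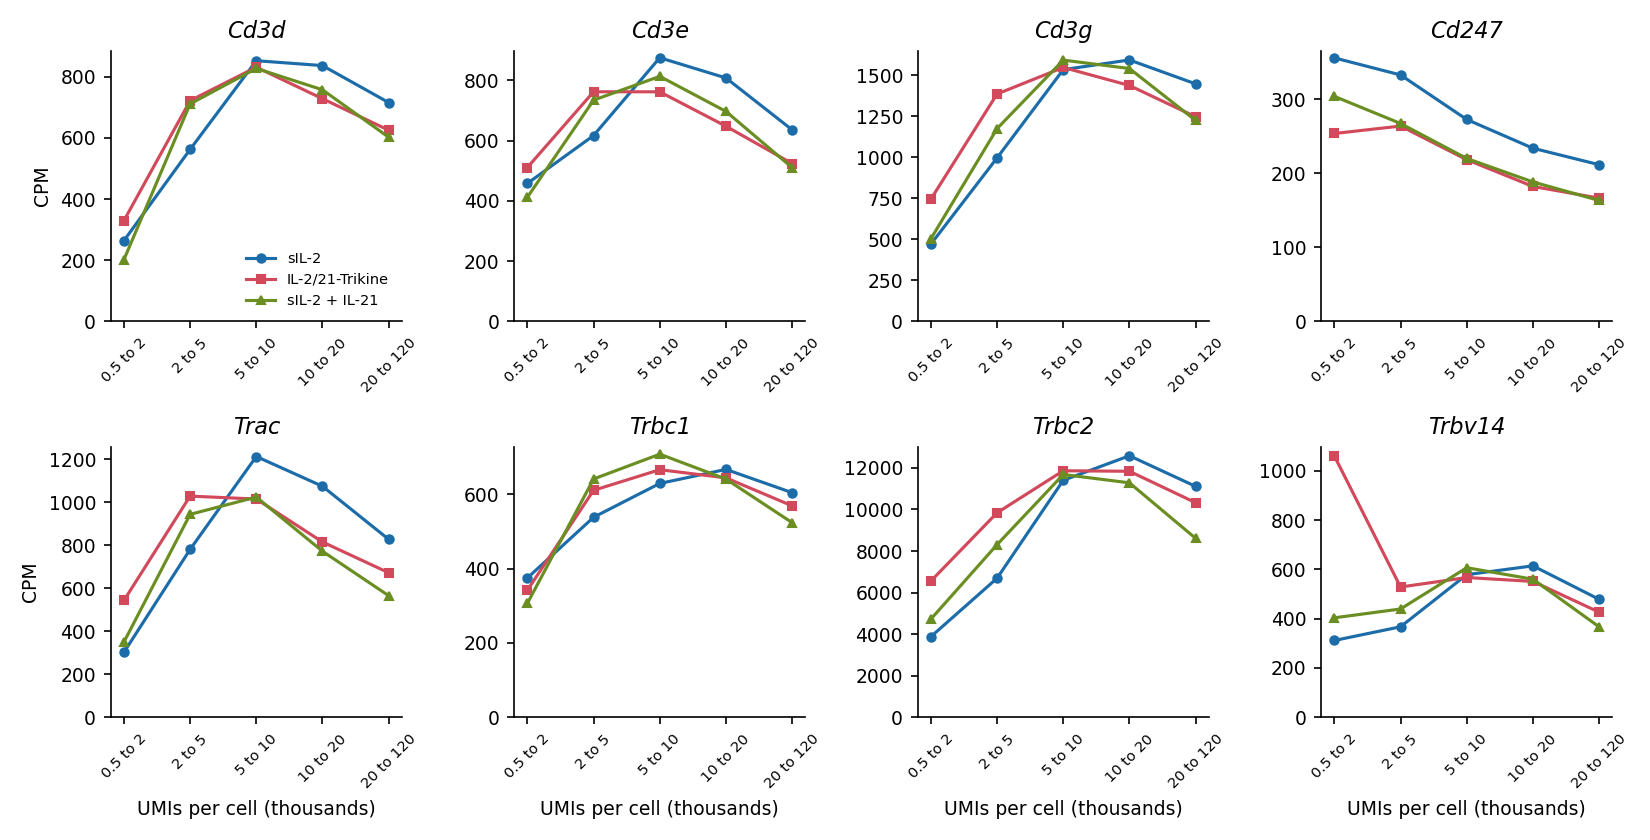
Level of 8 of the genes (vertical axes, CPM from 0) in cells grouped by their number of UMIs (horizontal axis, in units of 1000 UMIs) in the 3 libraries, 1 point per group of cells and library. Cd247 falls from 2000 UMIs upward while Cd3d, Cd3e, Cd3g, Trac, Trbc1 and Trbc2 are lowest below 2000 UMIs. Above 10000 UMIs Cd3d, Cd3e and Trac fall again in all 3 libraries. Trbv14 is high in the shallowest IL-2/21-Trikine cells, at 1060 CPM against 312 and 403.

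Levels also moved with the number of UMIs in a cell, which is why ranges of depth are given above. Cd3d stood at 264, 329 and 202 CPM in cells of 500 to 2000 UMIs and at 853, 831 and 827 in cells of 5000 to 10000. Trac stood at 302, 543 and 349 and at 1213, 1015 and 1024. In cells of at least 20000 UMIs both were lower again, Cd3d at 716, 625 and 602 and Trac at 827, 672 and 565. Cd247 did not start low. It stood at 356, 254 and 304 CPM in the shallowest cells and at 273, 218 and 220 in those of 5000 to 10000. In those of at least 20000 it stood at 212, 166 and 163. The shallowest cells made up 3.43%, 13.3% and 3.72% of the libraries.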

How the data were processed

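Single-cell 3′ RNA libraries were made from sorted tumor T cells, 1 per treatment. The deposited values are UMI counts per gene and cell, which the authors made with Cell Ranger 9.0.0, introns included. The labels name the build mm10 and the methods a GRCm39 reference, so no coordinates are given. Cells of 500 to 120000 UMIs and at most 20% mitochondrial UMIs were kept, 30857 in all, 1 more than the methods state. Doublets were not called. One alternative leaves out the deepest 5% of cells.

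Counts were summed per library and scaled to CPM over all genes. Ratios between libraries carry exact conditional binomial intervals. Poisson intervals of the levels and binomial intervals of the shares are exact, at 95%. Cells were thinned to 2000 UMIs with a fixed seed, and classes were gated on thinned counts. Counts summed per library and class were fitted with edgeR 4.0.16 (R 4.3.3), quasi-likelihood, TMM, low-count filter, library and class as terms, and p-values were adjusted over all genes by Benjamini-Hochberg with a threshold of 0.05. The 3 libraries are of different treatments, and nothing says they are more than 1 culture each. The p-values therefore refer to the spread between these libraries, which the fit estimates with information shared over all genes. Each printed SE is the size of the change divided by the square root of F, so it is not the spread of that gene alone. Alternatives used DESeq2 1.42.0, other scalings, gates, depths and filters. The procedures were tested on simulated data.

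All members are named in each comparison. Of the signaling list the 3 largest changes in each direction among those past the limit are named, of the variable segments those with at least 1% of their kind, and of the most similar genes 3 per member, in part. Members and lists were chosen with earlier results of these data known. Python 3.11.15, numpy 2.4.6, scipy 1.17.1 and pandas 2.3.3 were used. Transcript sequences came from GENCODE for GRCm38.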

Additional observations from a re-analysis of the deposited data

Results flagged for a closer look

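For 2 members the counting intervals of a class difference lay on opposite sides of 0 in different libraries. The difference between the libraries was not tested, since each treatment has 1 library. In cytokine-positive against cytokine-negative cells, the log2 ratio of Trac was 0.081 with sIL-2, 0.15 with the IL-2/21-Trikine and -0.026 after sIL-2 + IL-21. In Gzmb-positive against Gzmb-negative cells, the log2 ratio of Cd3g was 0.078, -0.016 and -0.084 in the same order. Neither gene passed the threshold in the main fit over the 3 libraries for that class. Trbv13-1 also differed in sign in Gzmb-positive cells, at 0.036, -0.40 and -0.57 in the same order. Its interval with sIL-2, -0.18 to 0.26, included 0. Within ranges of depth, inside which depth was not matched, the directions differed less. Trac lay above 0 in all 3 libraries, at 0.08 to 0.23 in cells of 5000 to 10000 UMIs, 0.17 to 0.28 at 10000 to 20000 and 0.07 to 0.21 from 20000. Cd3g ranged from -0.07 to 0.003 at 5000 to 10000, from 0.12 to 0.15 at 10000 to 20000 and from 0.005 to 0.21 from 20000.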

How the results depend on the processing

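The precision is limited by 1 library per treatment and by class sums that differ in depth. Of the members past a log2 ratio of 0.25 with the IL-2/21-Trikine against sIL-2 (2), 0 remained with TMM factors and 0 with median-of-ratios factors. With median-of-ratios factors 13.6% of all genes were lower and 19.7% higher. In cells thinned to 2000 UMIs 1 passed, beside 27.6% of all genes lower and 12.0% higher. In non-cycling cells alone 1 passed, beside 24.8% lower and 9.48% higher. In cells of 10000 to 20000 UMIs 3 passed, beside 31.2% of all genes lower and 18.4% higher. Against sIL-2 + IL-21 the Trikine had 0, and 1 when each cell was weighted equally, which was Trbv14 at 0.29. With that weighting 14.4% of all genes were higher and 10.1% lower. For sIL-2 against sIL-2 + IL-21 the 4 became 2 with TMM factors, 2 with median-of-ratios factors and 2 with each cell weighted equally. They became 2 in thinned cells, 2 in non-cycling cells alone and 2 in cells of 10000 to 20000 UMIs. With median-of-ratios factors 21.3% of all genes were higher and 27.5% lower. These shares were 29.7% and 16.6% with equal weights, and 30.6% and 17.3% in thinned cells. Without the myeloid- and melanoma-marker barcodes the comparisons had 2, 0 and 5 members past the limit, in the same order. Beside the 2, 22.1% of all genes were lower and 12.2% higher. Beside the 5, 29.5% were higher and 18.9% lower.

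Without a term for the library, the members called fell to 4 of 9 for cycling, 0 for cytokine-positive, 0 for granzyme C to G-positive and 0 for Gzmb-positive cells (9, 0, 2 and 1 at an unadjusted p under 0.05), and the calls over all genes fell as well. Within 10000 to 20000 UMIs the granzyme C to G class had 2. Leaving out 1 library at a time gave 8 to 9 members for cycling, 2 to 6 for cytokine-positive, 3 to 5 for granzyme C to G-positive and 2 to 4 for Gzmb-positive cells, with 2 for cytokine-positive without the Trikine library, 3 for granzyme C to G without sIL-2 + IL-21 and 2 for Gzmb without sIL-2. Over all genes, the last 3 of these fits called 2186 lower and 2741 higher of 14397, 2640 and 3068 of 14437, and 493 and 617 of 14689. The spread of the Cd3g share between libraries went from 1.72 to 1.94 points in thinned cells. The cause of these changes was not tested.

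Signs turned for values that were not called in the alternative. Within 10000 to 20000 UMIs these were Cd3e at 0.043 and Trbv13-1 at 0.055 for cytokine-positive, Cd3d at 0.083 and Cd3e at 0.021 for granzyme C to G-positive, and Cd3d at 0.033 and Trbv13-1 at 0.024 for Gzmb-positive cells. For Gzmb-positive cells, Cd3g was -0.0074 and Cd247 -0.061 with library totals alone, and Cd247 was -0.00597 with a stricter gate, -0.013 with thinned UMIs, -0.0012 with the gate genes left out, -0.022 without sIL-2 and -0.0017 without the Trikine library. Without sIL-2 + IL-21 its sign did not turn, at 0.034. Between treatments no paired analysis was possible because each has 1 library and the labels give no number that pairs animals, while the class comparisons set both classes of a library against each other through the library term.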

Other observations

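In cells of 500 to 2000 UMIs Trbv14 stood apart in 1 library. It reached 1060 CPM in the 1775 such cells with the IL-2/21-Trikine, against 312 CPM in 266 cells with sIL-2 and 403 CPM in 364 cells after sIL-2 + IL-21. The median mitochondrial share of these cells was 1.45% with the Trikine, 4.56% with sIL-2 and 9.31% after sIL-2 + IL-21. The CD3 proportions of these shallow cells also differed from those of deep cells: Cd247 made up 23.0%, 13.8% and 21.4% of CD3 UMIs below 2000 UMIs and 7.03%, 6.50% and 6.53% at 20000 or more, while Cd3g made up 30.4%, 40.5% and 35.4% and 48.1%, 48.7% and 49.0%. These are values of 1 library each, and what they share with depth was not tested.

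Cells with a beta variable segment other than Trbv14 and Trbv13-1 made up 2.16% with sIL-2, 1.44% with the IL-2/21-Trikine and 3.30% after sIL-2 + IL-21. Cd4 was counted at 0.41, 0.22 and 1.21 CPM in the same order. Whether these UMIs came from the same cells was not tested.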
